A study of Homo sapiens with 6 samples.

Results

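The kinesin motor family was described in lenvatinib-resistant TPC-1 cells, a human papillary thyroid carcinoma line, with a hairpin against KRT15 (shKRT15, n = 3 cultures) and with a non-targeting hairpin (shNC, n = 3 cultures). Members were the protein-coding genes of the deposited count table whose symbol is KIF or KIFC followed by a number and, in some, a letter, which gave 37 of 22681 genes. They were split by fixed lists into 12 mitotic kinesins and 15 transport kinesins, and the 10 members on neither list are called other kinesins. All 6 cultures were of the same resistant line, carried a hairpin delivered by liposome and were kept in lenvatinib, an inhibitor of VEGF, FGF and PDGF receptors, KIT and RET, at 10 µM, so resistant cells were compared with resistant cells and no drug-free culture stood beside them. KRT15 is a type I keratin of basal epithelia. The cultures are described as biological replicates, and whether each had its own transfection is not stated. The p-values therefore cover only the variation among these 6 cultures of 1 line, with 1 hairpin on each side.

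Kinesins are ATP-driven motors that walk along, or take apart, microtubules. Their motor domain is conserved, and the rest of the protein decides what they carry or hold. Mitotic kinesins are made mainly in dividing cells and build, focus and finally split the spindle. Transport kinesins carry vesicles, mitochondria and endosomes in interphase cells and neurons, and a further group works in cilia and at centrioles. Transcription of many mitotic kinesins peaks in G2 and M phase, through CCAAT boxes bound by NF-Y and cell cycle homology elements such as TTTGAA, which are bound by the DREAM and MuvB complexes with MYBL2 and FOXM1. In bulk RNA, more cells in mitosis and more of an mRNA per mitotic cell cannot be told apart.

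The upstream sequences of 5 members are shown because they set members that moved in opposite ways beside each other: KIF20A, KIF4A, KIF23 and KIF2C were higher in shKRT15 and KIF3A was lower. Each is the 250 bases before the first gene start that RefSeq gives (GRCh38.p14), 5′ to 3′ in the direction of the gene, with the CCAAT box, the element TTTGAA and the element TTTAAA, on either strand, in capitals.
KIF20A (chr5:138178862-138179111, plus strand): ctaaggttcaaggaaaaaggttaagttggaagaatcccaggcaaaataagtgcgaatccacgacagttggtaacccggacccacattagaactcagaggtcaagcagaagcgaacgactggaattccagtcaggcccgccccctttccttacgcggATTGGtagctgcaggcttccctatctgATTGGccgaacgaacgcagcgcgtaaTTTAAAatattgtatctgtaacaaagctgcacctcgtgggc
KIF4A (chrX:70289854-70290103, plus strand): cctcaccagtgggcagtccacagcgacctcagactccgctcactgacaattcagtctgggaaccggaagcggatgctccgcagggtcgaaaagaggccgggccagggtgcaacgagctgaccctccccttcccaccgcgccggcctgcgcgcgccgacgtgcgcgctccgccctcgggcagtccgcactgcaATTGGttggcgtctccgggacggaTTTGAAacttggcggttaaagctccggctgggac
KIF23 (chr15:69414099-69414348, plus strand): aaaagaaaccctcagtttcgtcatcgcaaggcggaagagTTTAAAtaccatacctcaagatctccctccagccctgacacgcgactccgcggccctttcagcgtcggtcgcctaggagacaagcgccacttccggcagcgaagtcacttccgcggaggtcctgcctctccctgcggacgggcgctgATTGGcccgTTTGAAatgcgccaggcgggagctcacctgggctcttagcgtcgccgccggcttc
KIF2C (chr1:44739587-44739836, plus strand): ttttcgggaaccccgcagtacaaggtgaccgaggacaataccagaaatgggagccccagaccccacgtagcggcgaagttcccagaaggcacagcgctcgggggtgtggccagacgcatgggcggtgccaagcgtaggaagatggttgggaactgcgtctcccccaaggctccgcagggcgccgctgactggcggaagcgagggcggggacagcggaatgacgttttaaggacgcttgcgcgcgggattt
KIF3A (chr5:132737547-132737796, minus strand): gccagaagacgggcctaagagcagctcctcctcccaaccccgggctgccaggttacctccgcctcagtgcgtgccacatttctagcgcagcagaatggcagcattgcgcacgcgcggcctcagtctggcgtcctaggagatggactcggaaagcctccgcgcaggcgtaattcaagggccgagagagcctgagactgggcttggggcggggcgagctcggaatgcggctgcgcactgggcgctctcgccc
In the KIF20A sequence the CCAAT boxes, read on the opposite strand as ATTGG, start at positions -94 and -67 from the gene start and TTTAAA at -41. KIF4A has ATTGG at -58 and TTTGAA at -34. KIF23 has ATTGG at -64, TTTGAA at -55 and TTTAAA at -211. The KIF2C and KIF3A sequences hold none of these letters.

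Upstream sequences were found for 31 members. CCAAT on either strand was present in 10 of 12 mitotic kinesins (83.3%), in 3 of 11 transport kinesins (27.3%) and in 4 of 8 other kinesins (50.0%), against 33% of all 27305 sequences of this length. TTTGAA was present in 5 of 12 mitotic kinesins (41.7%), 1 of 11 transport kinesins (9.1%) and none of the 8 others, against 13.6% of all. Both motifs stood together in 4 mitotic kinesins (KIF4A, KIF11, KIF18A and KIF23) and in the transport kinesin KIF5B, against 4.9% of all. KIF18A, with both motifs, and KIF20B, with 2 CCAAT boxes, are the mitotic kinesins whose reads did not pass the test, and KIF2C, with neither, rose. These matches describe letters and are not sites.

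Libraries held 39868231 to 41343780 reads in shKRT15 and 36286059 to 36808695 reads in shNC, of which the kinesins took 74847 to 81206 reads in shKRT15 and 48335 to 54654 reads in shNC. KRT15 itself, the target of the hairpin, stood at 25.0, 24.3 and 24.9 CPM (reads relative to the TMM-adjusted library size) in shKRT15 and at 28.7, 31.9 and 36.2 CPM in shNC, a log2 fold change of −0.38 ± 0.10 (SE, adjusted p = 0.00465). Changes are the edgeR quasi-likelihood log2 fold change, shKRT15 over shNC, with Benjamini-Hochberg adjustment over 14356 tested genes. The threshold for a call was an adjusted p of 0.05. By that rule 45% of all tested genes were called. Of all tested genes 22.1% were called higher and 23% lower, and the groups did not overlap in CPM for 54%. Of thyroid markers, PAX8 (410.4 CPM in shKRT15 and 375.3 CPM in shNC) and FOXE1 (15.3 and 14.6 CPM) were present, while thyroglobulin (TG) was at 0.808 CPM in shKRT15 and 1.58 CPM in shNC, and the epithelial markers EPCAM, CDH1 and KRT19 were under 0.05 CPM in both groups. The 6 epithelial markers summed to 247.6 to 259 CPM in shKRT15 and 147 to 160.5 CPM in shNC, of which the keratin gene KRT18 (215 CPM in shKRT15 and 116 CPM in shNC, adjusted p = 1.37e-08) rose, while KRT8 (0.20 ± 0.12) and KRT7 (−0.03 ± 0.11) were not called. Fibroblast markers summed to 7.87 to 8.57 CPM in shKRT15 and 17.9 to 23.3 CPM in shNC over 6 genes, with LUM (−2.77 ± 0.24) and COL1A1 (−1.52 ± 0.17) lower and PDGFRB (1.05 ± 0.26, adjusted p = 0.00337) higher. Leukocyte markers summed to 157 to 185 CPM in shKRT15 and 204 to 205 CPM in shNC over 5 genes. Nearly all of this was CD68 (59.6 CPM in shKRT15 and 87.9 CPM in shNC) and LAPTM5 (109.6 and 115.8 CPM). PTPRC (0 and 0.4 CPM), CD3E (0.0078 and 0.038 CPM) and LYZ (0.049 and 0.54 CPM) were close to 0. The part of these marker genes in the results was not tested.

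The mitotic kinesins rose. Of 12, 10 were called higher (83.3%, against 22.1% of all tested genes), none was called lower, and 7 rose by at least 2-fold, against 3.96% of all tested genes. Their median log2 fold change was 1.05, and that of all tested genes was −0.0013. No mitotic kinesin was lower at an unadjusted p under 0.05 either, and DESeq2 and limma-voom called 0 lower, with 11 higher by DESeq2 and 10 by limma-voom. These counts hold for the list used. Relatives of these motors counted among the other kinesins are left out of them, such as KIF2A, called lower (−0.36 ± 0.09), and KIF4B, called higher (1.84 ± 0.56).

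Motors of the central spindle and of cytokinesis were led by KIF20A (MKLP2, which brings the Aurora B complex to the central spindle). It lies on chromosome 5 from 138178719 to 138187715 (GRCh38, GENCODE release 29). KIF20A stood at 107, 107 and 120 CPM in shKRT15 and at 30.8, 32.4 and 28.5 CPM in shNC. The lowest shKRT15 culture was thus more than 3 times the highest shNC culture, and the log2 fold change was 1.86 ± 0.08 (SE, adjusted p = 1.87e-11), the 45th smallest p-value of all tested genes. Of its exon bases, 3.34% overlap BRD8 and 1.72% overlap CDC23 on the opposite strand. These neighbours rose less, BRD8 by 0.40 ± 0.08 and CDC23 by 0.58 ± 0.08.

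KIF23 (MKLP1) forms centralspindlin with RACGAP1 and bundles midzone microtubules. It stood at 94.6, 101 and 89.7 CPM in shKRT15 and at 54.0, 47.0 and 45.6 CPM in shNC, with no overlap, and rose by 0.96 ± 0.09 on the log2 scale (adjusted p = 8.51e-08). KIF14 brings citron kinase to the midbody. It had 50.5, 60.1 and 43.4 CPM in shKRT15 and 36.0, 33.7 and 24.1 CPM in shNC (0.72 ± 0.14, adjusted p = 0.000905), with wide spread in both groups. KIF20B, the remaining kinesin-6 and also a cytokinesis motor, had 50.0, 56.6 and 32.6 CPM in shKRT15 and 35.7, 38.8 and 33.4 CPM in shNC. Its replicate 3 of shKRT15 lay below all shNC cultures, and it was not called (0.37 ± 0.16, 95% interval 0.030 to 0.71, adjusted p = 0.0719).

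Chromokinesins, which bind chromosome arms, rose together. KIF4A also binds PRC1 and limits the length of midzone microtubules. It had 60.1, 63.2 and 65.3 CPM in shKRT15 and 25.4, 24.5 and 23.3 CPM in shNC (1.37 ± 0.09, adjusted p = 1.21e-09). KIF22 (Kid), which pushes chromosomes away from the poles, had 67.4, 62.7 and 66.6 CPM in shKRT15 and 27.1, 30.3 and 32.4 CPM in shNC (1.13 ± 0.09, adjusted p = 2e-08). Both pairs of groups were well apart. Of the exon bases of KIF22, 13.01% overlap the antisense gene AC009133.4.

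Spindle assembly motors rose as well. KIF11 (Eg5) slides antiparallel microtubules apart and makes the spindle bipolar. It had 93.5, 105 and 88.7 CPM in shKRT15 and 46.1, 46.7 and 44.7 CPM in shNC (1.06 ± 0.08, adjusted p = 1.58e-08). KIF15, which can take over from KIF11, was much less abundant, at 24.7, 25.0 and 18.4 CPM in shKRT15 and 11.8, 13.6 and 11.3 CPM in shNC (0.89 ± 0.13, adjusted p = 2.63e-05). KIFC1 (HSET), a minus-end motor that cross-links spindle microtubules and clusters extra centrosomes, had 68.7, 64.9 and 72.3 CPM in shKRT15 and 26.5, 30.3 and 28.4 CPM in shNC (1.27 ± 0.09, adjusted p = 3.76e-09). Of its exon bases, 12.68% overlap the pseudogene RPL12P1 on the opposite strand.

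Motors that set microtubule length at the ends divided. KIF2C (MCAK) takes apart microtubules at centromeres and corrects wrong attachments. It had 91.7, 84.2 and 97.4 CPM in shKRT15 and 43.7, 43.9 and 45.0 CPM in shNC (1.04 ± 0.08, adjusted p = 1.51e-08). KIF18B, which limits astral microtubules, had 32.5, 28.0 and 34.4 CPM in shKRT15 and 13.9, 13.9 and 11.3 CPM in shNC (1.28 ± 0.11, adjusted p = 9.69e-08). KIF18A, which dampens chromosome oscillations at the metaphase plate, had 21.6, 23.9 and 16.5 CPM in shKRT15 and 20.9, 20.4 and 20.4 CPM in shNC, and its groups overlapped. Its log2 fold change was 0.0087 ± 0.12 with a 95% interval of −0.25 to 0.27 (adjusted p = 0.963), which lies below the interval of KIF18B (1.04 to 1.52).

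**Figure D1:**
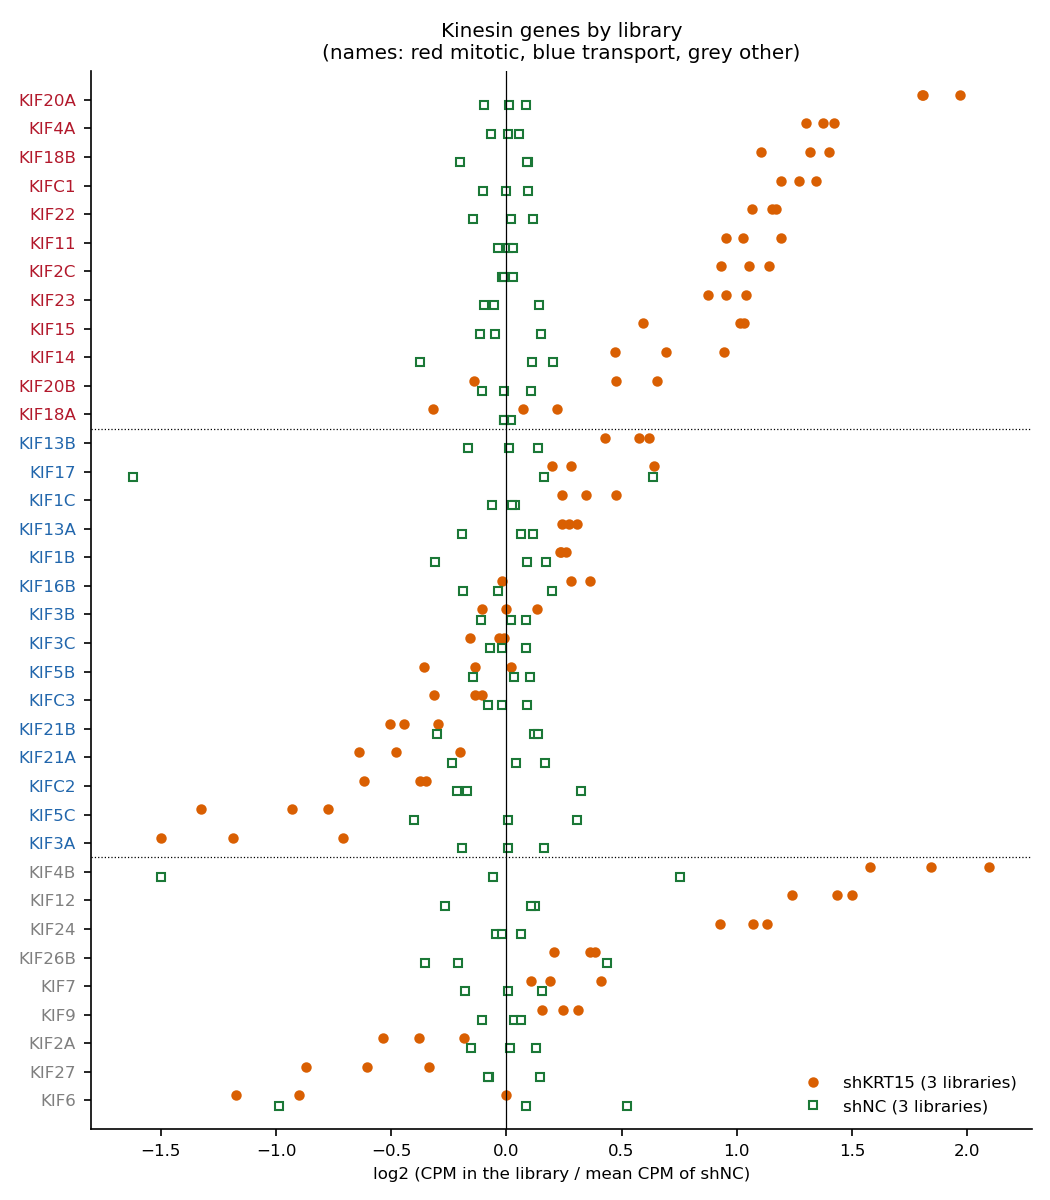
CPM of each of the 36 tested kinesins in each library, as log2 of its ratio to the shNC mean of that gene, with shKRT15 libraries as filled circles above shNC libraries as open squares. For 10 of 12 mitotic kinesins every shKRT15 culture lies to the right of every shNC culture, while KIF20B and KIF18A overlap. Of all tested genes, 54% had groups that did not overlap in CPM, in either direction.

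The mitotic kinesins that did not pass are the richest in A and T. KIF20B (34.2% GC in its longest transcript) and KIF18A (37.0%) have the lowest GC content of the 12, whose median is 44.4%. KIF14 (38.27%) and KIF11 (38.33%) come next, close to KIF18A, and were called higher. Within shKRT15, replicate 2 differed from replicate 3 along GC content: over the 36 tested kinesins the Spearman correlation of that difference with GC content was −0.744, and over 13656 tested genes with annotation it was −0.508. The Spearman correlation of the fold change, shKRT15 over shNC, with GC content was 0.254 over the 13656 genes, 0.142 over the 36 kinesins and 0.748 over the 12 mitotic kinesins. These genes share libraries and are not independent. The difference, replicate 2 minus replicate 3, was 0.787 for KIF20B, 0.749 for KIF3A and 0.523 for KIF18A on the log2 scale, against −0.164 for KIF20A and −0.290 for KIF18B. In a fit corrected for the trend of each library with GC content and transcript length, 12 of 12 mitotic kinesins were called higher, KIF20B at 0.72 (adjusted p = 2.86e-05) and KIF18A at 0.30 (adjusted p = 0.0169). KIF20B was called in 6 of 15 other settings. Besides the corrected fit, these were DESeq2 (0.37, adjusted p = 0.033), total count scaling, no filter on low counts, the replicate block and leaving out shKRT15 replicate 3 (0.57, adjusted p = 0.000369). KIF18A lay between −0.10 (without shKRT15 replicate 2) and 0.30 over all settings. CENPE, the kinesin-7 of kinetochores, lies outside the naming pattern and has a similar spread, at 31.2, 39.4 and 20.3 CPM in shKRT15 and 39.2, 36.6 and 38.6 CPM in shNC (GC content 35.3%). It was not called (−0.33 ± 0.18, adjusted p = 0.151), but passed as lower when shKRT15 replicate 2 was left out (−0.56, adjusted p = 0.00844) or all genes were kept in the fit (−0.33, adjusted p = 0.00927), and stood at −0.04 (adjusted p = 0.829) in the GC-corrected fit. The count of mitotic kinesins called lower does not include it.

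**Figure D2:**
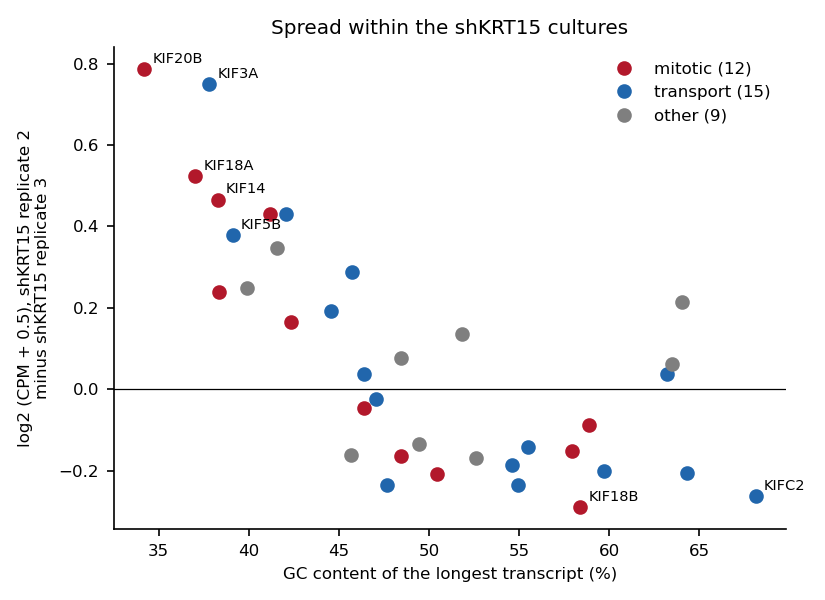
Difference in log2 (CPM + 0.5) between replicates 2 and 3 of shKRT15 for each tested kinesin (vertical axis) against the GC content of its longest transcript in percent (horizontal axis), coloured by class. Kinesins of low GC content lie above 0, and KIF20B, KIF3A and KIF18A are farthest from it.

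The mitotic kinesins moved with their partners and with general proliferation markers. Of 18 mitotic partners, 18 were called higher (100%, against 22.1% of all tested genes), with a median of 1.14, including the midzone bundler PRC1 (1.33 ± 0.07), the survivin gene BIRC5 (1.45 ± 0.08) and RACGAP1 (1.17 ± 0.07), the centralspindlin partner of KIF23. Of 8 proliferation markers 8 rose (median 1.06), led by TYMS, MCM2 and MKI67, the last of which is on both lists. None of either list was lower at an unadjusted p under 0.05, and DESeq2 and limma-voom called 0 lower. The summed level of the 8 markers was 1614 to 1663 CPM in shKRT15 and 744.5 to 802.3 CPM in shNC. Mitotic kinesin CPM per proliferation marker CPM was 0.469, 0.469 and 0.461 in shKRT15 and 0.463, 0.481 and 0.468 in shNC, and the groups overlapped in this ratio. Among 18 genes upstream of mitotic transcription, 10 rose (55.6%, against 22.1% of all tested genes) and none fell (0 lower at an unadjusted p under 0.05, and by DESeq2 and limma-voom), led by MYBL2 (1.51 ± 0.08), FOXM1 (1.53 ± 0.09) and E2F2 (2.25 ± 0.17). Subunits of the same complexes differed in call. Of NF-Y, NFYC rose (0.32 ± 0.09, adjusted p = 0.00629), while NFYA (0.04 ± 0.09) and NFYB (0.19 ± 0.10) were not called. Of MuvB, LIN9 rose (0.41 ± 0.13, adjusted p = 0.0181), while LIN37 (−0.15 ± 0.13), LIN52 (−0.05 ± 0.12) and LIN54 (−0.11 ± 0.13) were not called.

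The transport kinesins were called about as often as other genes. Of 15, 3 were called higher (20%, against 22.1% of all tested genes) and 4 lower (26.7%, against 23%), with a median log2 fold change of −0.065. None changed by 2-fold upward, and their summed level was 977, 964 and 980.4 CPM in shKRT15 and 977.7, 962.4 and 882.9 CPM in shNC.

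The kinesin-3 transport motors, which carry vesicles, endosomes and mitochondria, accounted for the 3 rises. KIF13B had 39.8, 36.0 and 41.0 CPM in shKRT15 and 26.9, 29.4 and 23.8 CPM in shNC (0.54 ± 0.10, adjusted p = 0.000261). KIF1C, a vesicle motor and the more abundant of these, had 304, 282.5 and 333 CPM in shKRT15 and 245, 243 and 229 CPM in shNC (0.36 ± 0.07, adjusted p = 0.000747). KIF13A rose by 0.27 ± 0.09 (adjusted p = 0.0200), a call lost without shNC replicate 3 (0.18, adjusted p = 0.0633). KIF1B (0.24 ± 0.10, adjusted p = 0.0662) and the early endosome motor KIF16B (0.22 ± 0.14, adjusted p = 0.212) were not called. Leaving out shNC replicate 1 gave KIF1B a call (0.34, adjusted p = 0.0141), as did 4 other settings.

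Kinesin-2 motors drive intraflagellar transport and vesicle traffic as a heterotrimer of KIF3A, KIF3B or KIF3C, and the adaptor KIFAP3. KIF3A had 8.38, 11.6 and 6.73 CPM in shKRT15 and 19.2, 21.3 and 16.7 CPM in shNC. The groups did not overlap, and KIF3A fell by 1.09 ± 0.17 on the log2 scale (adjusted p = 5.68e-05), the largest fall among kinesins that were called. Its value lay between −1.33 and −0.85 over all settings, and it was called in each. KIFAP3 also fell, by 0.75 ± 0.09 (adjusted p = 2.32e-06). KIF3B (0.01 ± 0.09, 95% interval −0.17 to 0.20) and KIF3C (−0.06 ± 0.08, interval −0.24 to 0.11) were not called, though KIF3C was lower in the GC-corrected fit (−0.19, adjusted p = 0.0264). KIF17, the homodimeric kinesin-2, had 22, 18 and 16 reads in shKRT15 and 14, 4 and 19 reads in shNC and was not called.

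Kinesin-1 is the main carrier of vesicles and mitochondria. KIF5B, its ubiquitous heavy chain, had 214, 239 and 184 CPM in shKRT15 and 253, 241 and 213 CPM in shNC, with overlap, and was not called (−0.15 ± 0.09, adjusted p = 0.2005). It passed as lower without shKRT15 replicate 2 (−0.24, adjusted p = 0.0474) and without shNC replicate 3 (−0.22, adjusted p = 0.0385), and turned to 0.07 (adjusted p = 0.351) in the GC-corrected fit. The neuronal KIF5C had only 12, 14 and 9 reads in shKRT15 and 25, 20 and 15 reads in shNC and was not called (adjusted p = 0.144). Of 20 tested light chains and cargo adaptors of these motors, 8 fell (40%, against 23% of all tested genes) and 1 rose (5%, against 22.1%), with a median of −0.16. The mitochondrial adaptor TRAK1 rose (0.30 ± 0.09). The kinesin light chain KLC2 fell by 0.35 ± 0.09, and KLC1 was at −0.15 ± 0.07 (adjusted p = 0.101).

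The kinesin-4 transport motors KIF21A and KIF21B slow microtubule growth. KIF21A had 27.8, 33.8 and 24.9 CPM in shKRT15 and 43.5, 39.9 and 32.9 CPM in shNC (−0.43 ± 0.12, adjusted p = 0.00883), and KIF21B had 11.7, 11.2 and 12.98 CPM in shKRT15 and 17.3, 17.5 and 12.95 CPM in shNC (−0.41 ± 0.13, adjusted p = 0.0160). Both were called lower although the highest shKRT15 culture lay above the lowest shNC culture. The call of KIF21A was lost without shKRT15 replicate 3 (adjusted p = 0.0530), and that of KIF21B without shKRT15 replicate 1 or 2 or shNC replicate 1 or 2 (0.0625 to 0.0898). KIFC2, a minus-end type motor known from neurons, fell by 0.44 ± 0.13 (adjusted p = 0.0126), with 22.1, 18.7 and 22.5 CPM in shKRT15 and 24.7, 25.4 and 35.9 CPM in shNC, and was not called without shKRT15 replicate 2 (0.0698) or shNC replicate 3 (−0.25, adjusted p = 0.0594). Its exons share 17.79% of their bases with FOXH1 on the opposite strand, which had 0 to 9 reads in any library. KIFC3, which works at epithelial junctions, had 102, 89.9 and 104 CPM in shKRT15 and 106, 110 and 119 CPM in shNC (−0.18 ± 0.08, adjusted p = 0.0691), and was called lower in the GC-corrected fit (−0.39, adjusted p = 0.000129) and with a replicate block (adjusted p = 0.0460). Neuronal markers, listed because neurons carry many of these motors, summed to 1.86 to 2.55 CPM in shKRT15 and 3.17 to 3.95 CPM in shNC over 5 genes, with STMN2 at 0 in shNC, and their part in these falls was not tested.

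**Figure D3:**
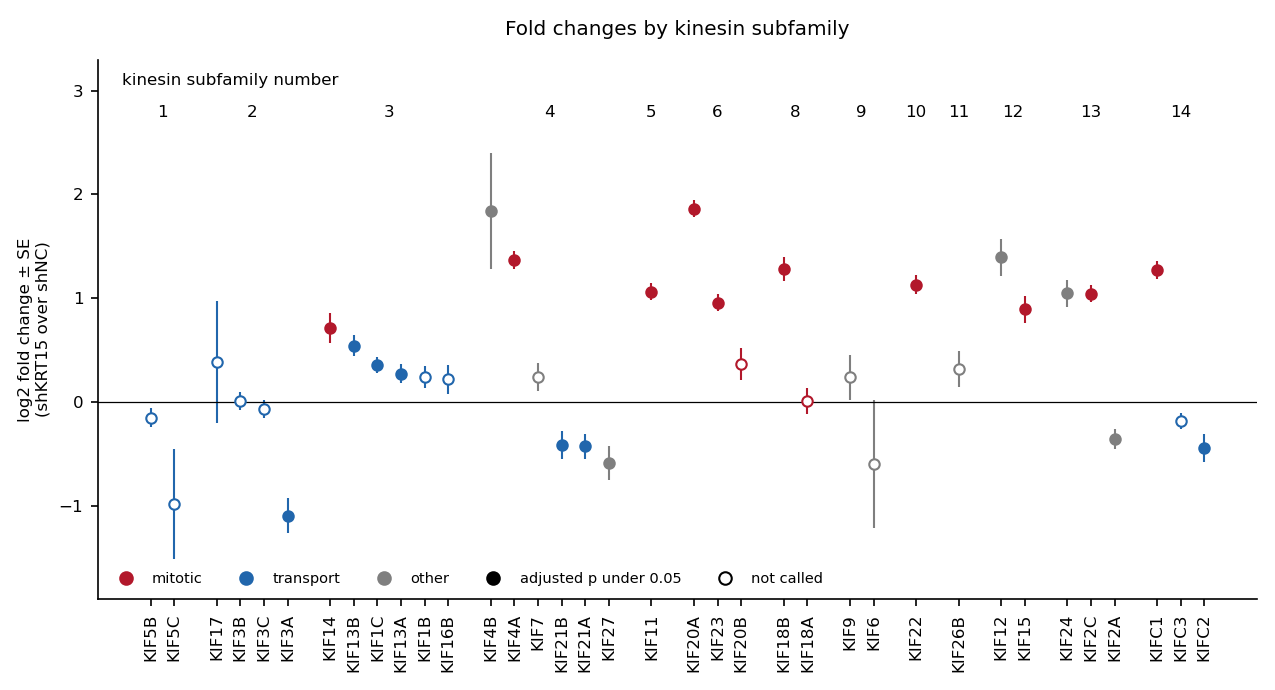
Log2 fold change (shKRT15 over shNC) with its SE for the 36 tested kinesins, grouped by subfamily number, coloured by class, filled where called. Subfamilies 4, 13 and 14 each hold a mitotic motor near or above 1 and at least 1 relative below 0.

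Among the other kinesins, 3 rose (33.3%, against 22.1% of all tested genes) and 2 fell (22.2%, against 23%) of 9 tested. KIF24, a kinesin-13 that restrains cilium assembly at the centriole, had 12.5, 10.9 and 11.97 CPM in shKRT15 and 5.52, 5.61 and 5.95 CPM in shNC (1.05 ± 0.13, adjusted p = 6.82e-06). KIF12, known from kidney and liver epithelia, had 6.74, 8.08 and 7.72 CPM in shKRT15 and 2.38, 3.12 and 3.08 CPM in shNC (1.40 ± 0.18, adjusted p = 6.91e-06). KIF4B, an intronless relative of KIF4A, had 41, 30 and 34 reads in shKRT15 and 3, 8 and 14 reads in shNC (1.84 ± 0.56, adjusted p = 0.0128). It passed the filter on low counts through the shKRT15 libraries, and its reads cannot be separated here from those of the near-identical KIF4A, which had 2460 to 2713 reads in shKRT15 and 825 to 918 in shNC. Its call was lost without shKRT15 replicate 1 (adjusted p = 0.0603) or shNC replicate 1 (0.0626).

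KIF2A, a kinesin-13 like KIF2C but on neither the mitotic nor the transport list used here, fell. It had 81.3, 92.9 and 72.9 CPM in shKRT15 and 115, 107 and 94.8 CPM in shNC (−0.36 ± 0.09, adjusted p = 0.00497). It shares 8.97% of its exon bases with IPO11 on the same strand, which itself rose by 0.51 ± 0.09. KIF27, a relative of the Hedgehog regulator KIF7, had 4.81, 6.96 and 5.79 CPM in shKRT15 and 9.72, 8.34 and 8.32 CPM in shNC (−0.59 ± 0.16, adjusted p = 0.00665), a call lost without shKRT15 replicate 1 (−0.45, adjusted p = 0.0536). KIF7 (0.24 ± 0.14), the ciliary KIF9 (0.24 ± 0.22), KIF26B (0.32 ± 0.17) and KIF6 (−0.60 ± 0.62) were not called, with KIF26B called without shNC replicate 1 (0.61, adjusted p = 0.00288). KIF9 shares 14.87% of its exon bases with KIF9-AS1, and strand was not given. KIF7 shares 11.78% of its exon bases with TICRR on the opposite strand, which rose by 0.56 ± 0.12. KIF25 had 1, 4 and 9 reads in shKRT15 and 9, 4 and 2 reads in shNC and was too low to test. Markers of multiciliated cells summed to 0.594 to 1.03 CPM in shKRT15 and 1.38 to 1.89 CPM in shNC over 5 genes, with CCDC39 at 0 in shKRT15, and their part in these values was not tested.

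Relatives within 1 subfamily were set against each other by the ratio of their reads in the same library, which needs no scaling between libraries. Such a ratio does not remove the differences between libraries along GC content where the relatives differ in it. KIF20A (48.4% GC) and KIF20B (34.2%) do, as do KIF18B (58.4%) and KIF18A (37.0%). The 8 pairs were chosen with the values known, so the ratios are given without a test. KIF2C had 1.13, 0.907 and 1.34 reads per KIF2A read in shKRT15 and 0.379, 0.412 and 0.475 in shNC, a 2.64-fold change. KIF4A had 2.16, 1.87 and 2.62 reads per KIF21A read in shKRT15 and 0.582, 0.615 and 0.707 in shNC. In both pairs the first motor, KIF2C or KIF4A, had fewer reads than its relative in every shNC culture. In shKRT15 it had more, apart from KIF2C in replicate 2.

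KIF20A had 2.14, 1.89 and 3.67 reads per KIF20B read in shKRT15 and 0.862, 0.836 and 0.853 in shNC. KIF18B had 1.5, 1.17 and 2.08 reads per KIF18A read in shKRT15 and 0.666, 0.679 and 0.557 in shNC. KIFC1 had 0.676, 0.722 and 0.695 reads per KIFC3 read in shKRT15 and 0.251, 0.275 and 0.239 in shNC. These 3 pairs also stood apart between the groups. KIF3A had 0.15, 0.224 and 0.11 reads per KIF3B read in shKRT15 and 0.324, 0.377 and 0.322 in shNC, a 0.455-fold change within 1 motor complex. KIF15 per KIF12 was lower in shKRT15 (2.39 to 3.66) than in shNC (3.67 to 4.98), by a narrow margin, and KIF14 per KIF1C overlapped (0.131 to 0.213 in shKRT15 and 0.105 to 0.147 in shNC).

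**Figure D4:**
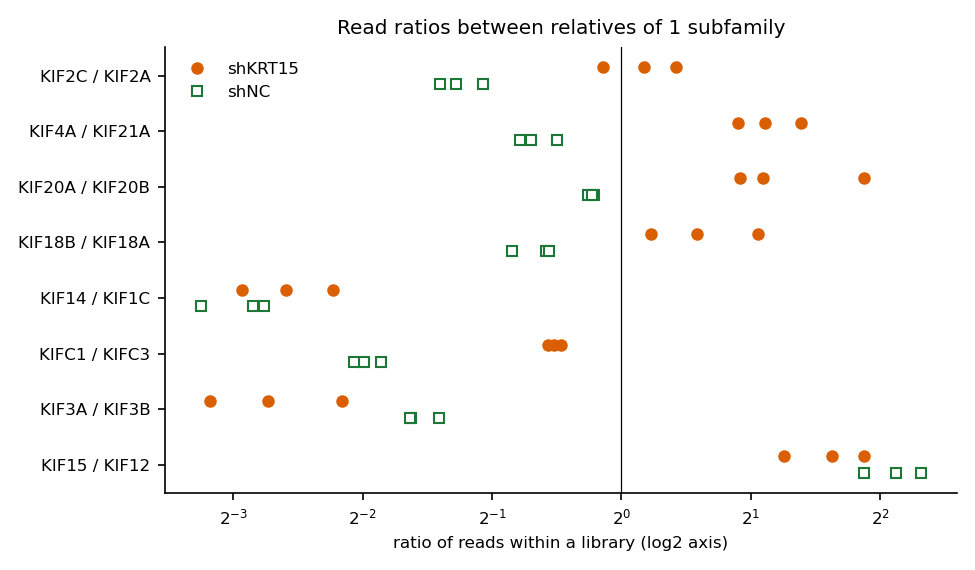
Ratio of reads of 2 relatives in each library on a log2 axis, with shKRT15 as filled circles above shNC as open squares. For 7 of 8 pairs the groups do not overlap, and KIF14 per KIF1C is the pair that does.

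Per length, the make-up of kinesin mRNA shifted towards mitotic motors. Levels were set per kilobase of exon as RPKM (CPM divided by exon length in kilobases, from GENCODE release 29). Exon length is that of all annotated exons of the gene merged. It can exceed the longest transcript, as in KIFC3 (9600 against 3427 bases), or equal it, as in KIF11 (4860 bases). Ranks and shares in RPKM therefore hold for this choice of length only. The mitotic kinesins summed to 166, 167 and 165 RPKM in shKRT15 and to 77.1, 78.7 and 74.0 RPKM in shNC. The transport kinesins summed to 124, 123 and 122.5 RPKM in shKRT15 and to 127, 125 and 116 RPKM in shNC. Mitotic kinesins thus made up 52.3 to 52.9% of kinesin RPKM in shKRT15 and 32.8 to 34.2% in shNC.

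In shKRT15 the highest levels were those of KIF5B (36.1 ± 4.72 RPKM, SD, n = 3), KIF1C (35.7 ± 2.93), KIF20A (28.1 ± 1.86), KIF2C (25.0 ± 1.81), KIFC1 (20.5 ± 1.10) and KIF11 (19.7 ± 1.69). In shNC they were those of KIF5B (40.1 ± 3.49 RPKM), KIF1C (27.9 ± 1.03), KIF2A (22.1 ± 2.16), KIF2C (12.1 ± 0.198) and KIFC3 (11.6 ± 0.702). KIF20A ranked 3 of 37 in shKRT15 and 9 of 37 in shNC, and KIF2A ranked 7 in shKRT15 and 3 in shNC. KIF5B and KIF1C differed by less than their SD in shKRT15 and by more than it in shNC, and KIFC1 and KIF11 differed by less than their SD in shKRT15. KIF6, KIF5C and KIF25 were under 0.1 RPKM in both groups, and KIF4B and KIF17 were under it in shNC.

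**Figure D5:**
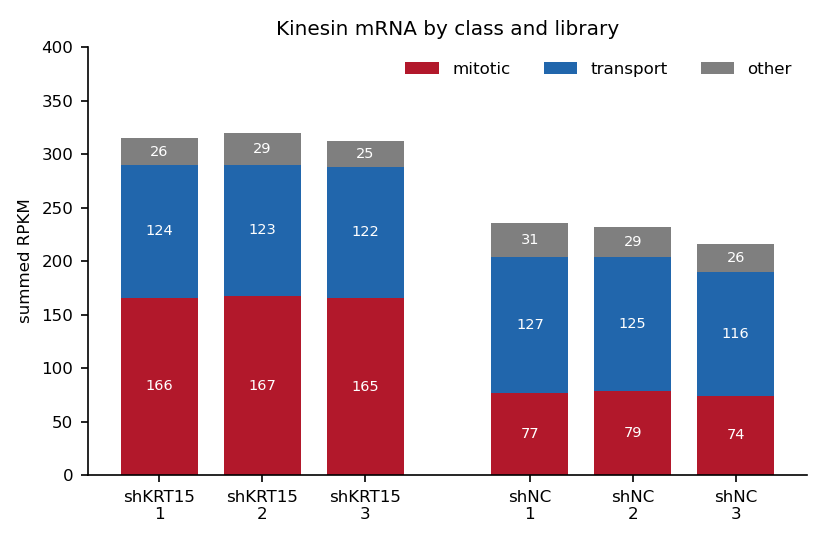
Summed RPKM of mitotic, transport and other kinesins in each library, as stacked bars from 0, shKRT15 on the left and shNC on the right. The mitotic part is 165 to 167 RPKM in shKRT15 and 74 to 79 RPKM in shNC, and the transport part is 122.5 to 124 RPKM in shKRT15 and 116 to 127 RPKM in shNC.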

How the data were processed

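Raw read counts per gene were used as deposited by the authors, 1 whole number per gene and library, with no normalization. Per the submitters' processing notes the build was GRCh38, and mRNA was purified and sequenced on the Illumina platform per the labels' protocols. The sources used here name no aligner, counter, annotation or strand setting, so antisense partners cannot be separated. Libraries were placed in groups by their titles. No 2 libraries agreed within sampling noise (chi-square per degree of freedom 6.24 to 31.1 within groups).

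Genes kept by edgeR's filterByExpr (minimum count 10, minimum total 15) were tested with its quasi-likelihood test (edgeR 4.0.16, R 4.3.3, TMM, robust), fitted on the whole table. Of 37 kinesins 36 were tested. The standard error is the fold change over the root of the F statistic. On simulated counts with the same groups, over 14123 genes, 82.5% of 97 changes of 2-fold and 76% of 100 changes of 1.5-fold were called. Of 165 calls, 9 were false. Far fewer genes changed there than the 45% called in the data, so these rates do not carry over to it. GENCODE release 29 gave GC content and length for 95.1% of tested genes. Alternatives were DESeq2 1.42.0, limma-voom (3.58.1), 2 other scalings, 2 filters, a replicate block, coding genes, correction for GC content and length, and leaving out each library.

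The members and lists were chosen with earlier results of these data known. All members are named, with KRT15, CENPE and, of each pathway list, those called with the smallest p-values, of which some adaptors are not reported here. Overlapping neighbours of members, genes given as not called, the NF-Y and MuvB subunits, the cell type markers named and the read ratio pairs were chosen after values were seen. Of 204 listed genes 6 had no row of that symbol and were not used here. KIF1A and KIF5A are not analysed here.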

Additional observations from a re-analysis of the deposited data

How the results depend on the processing

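Across the 9 other settings and the 6 fits without 1 library, 10 to 12 mitotic kinesins were called higher and none lower, and their median log2 fold change stayed between 1.05 and 1.11. Transport kinesins were called higher in 2 to 4 and lower in 3 to 6 cases. With the replicate block, 11 mitotic kinesins were called higher, and 4 transport kinesins were higher and 5 lower. Whether the replicate numbers pair the cultures is not known. Same-numbered cultures had correlations of deviations of −0.0074 to 0.046, the highest for replicate 3. In contrast, shKRT15 replicate 2 and shNC replicates 1 and 2 correlated best with another number. Values this close to 0 cannot settle the question. Without 1 library, other kinesins called lower ranged from 1 to 2, and the median of all tested genes from −0.0044 to 0.0066. That median was 0.059 with total count scaling, 0.0021 with no filter on low counts, 0.0081 with a minimum of 1 CPM in 3 libraries and 0.028 in the GC-corrected fit. Values near 0 changed sign, none of them called. KIF18A was at −0.0064 with limma-voom and −0.0062 with the replicate block, and between −0.10 (without shKRT15 replicate 2) and 0.15 (without shKRT15 replicate 3) without 1 library. KIF3B was at −0.027 in the GC-corrected fit and between −0.051 (without shKRT15 replicate 3) and 0.072 (without shKRT15 replicate 2) without 1 library. KIF17 ranged from −0.033 (without shNC replicate 2) to 0.84 (without shNC replicate 3), and KIF5B was at 0.072 in the GC-corrected fit. The cause was not tested. Of the values of tested kinesins under these settings, 498 kept direction and call, 18 gained a call, 11 lost it and 9 changed sign. Depth limits KIF4B, KIF5C, KIF6, KIF17 and KIF25, which had at most 41 reads in any library.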

Other observations

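Genes of the microtubule tracks and of the opposing motor dynein are set here against all tested genes, of which 22.1% were called higher and 23% lower. Of 15 tested tubulin genes 7 rose (46.7%) and 5 fell (33.3%). TUBA1B (1606 CPM in shKRT15 and 966.2 CPM in shNC, log2 fold change 0.73 ± 0.07), TUBB4B (0.66 ± 0.08) and TUBB (0.53 ± 0.07), the abundant isotypes, rose, and TUBA1A (−0.76 ± 0.07), TUBB6 (−0.36 ± 0.07) and TUBE1 (−0.47 ± 0.12) fell. Tubulin genes are close copies of each other, so reads may be split between them. The summed tubulin level was 5289 to 6033 CPM in shKRT15 and 4007 to 4240 CPM in shNC. Dynein and dynactin genes were called about as often as other genes. Of 29, 7 rose (24.1%), led by NDE1 (0.60 ± 0.09), DCTN3 (0.58 ± 0.09) and DCTN1 (0.32 ± 0.08), and 6 fell (20.7%), led by DCTN6 (−0.75 ± 0.10), NDEL1 (−0.59 ± 0.08) and DYNLT3 (−0.76 ± 0.12). The dynein regulators NDE1 and NDEL1, which are relatives, thus moved in opposite directions.

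Of 23 microtubule-associated genes 5 rose (21.7%, close to the share of all tested genes) and 1 fell (4.35%). STMN1, which binds free tubulin (455 CPM in shKRT15 and 225 CPM in shNC, 1.02 ± 0.07), the spindle polymerase gene CKAP5 (0.73 ± 0.08) and MAPRE2 (0.52 ± 0.08) rose, and MAP1S (−0.45 ± 0.08) fell. Intraflagellar transport and cilium genes were called no more often than other genes in either direction. Of 25, 4 rose (16%), led by IFT122 (0.68 ± 0.11), IFT172 (0.83 ± 0.15) and IFT81 (0.57 ± 0.16), and 5 fell (20%), led by BBS7 (−0.70 ± 0.10), IFT20 (−0.58 ± 0.10) and TTC8 (−0.47 ± 0.11). Their median was −0.10. Adjusted p-values of the genes named as rising or falling were under 0.05 in the edgeR quasi-likelihood test, by which 45% of all tested genes were called.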
